A study of Macaca mulatta with 304 samples.

Results

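The genes described are 9 regulators and late maturation genes of the red cell lineage: KLF1, GATA1, TAL1, NFE2, GFI1B, TRIM58, SLC25A37, SELENBP1 and AHSP. They were chosen by symbol from the 21070 genes of the count table, and all 9 were among the 13751 genes with enough reads to be tested. Whole blood of 28 adult rhesus macaques (Macaca mulatta, Chinese sub-strain, 14 females and 14 males) was drawn before and after a single photon exposure of the thorax. The lower dose (LD) was 9.8 Gy in 12 animals with 151 irradiated samples, the higher dose (HD) was 10.7 Gy in 16 animals with 129 irradiated samples, and 24 animals also gave an unirradiated control sample at Day -2. The same animals were drawn again and again, and the number with a control fell from 24 on Day 3 to 40 to 6 on Day 180 to 270 as animals reached the criteria for ending. Both dose groups received analgesics from the same protocol, and dexamethasone was given to animals with fast breathing, so drug effects cannot be told apart from those of radiation. The question for these genes was when after exposure their RNA in blood rose or fell, and whether this depended on dose or sex.

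Red cells form in the bone marrow from progenitors that pass through erythroblast stages, lose the nucleus and enter the blood as reticulocytes, which still carry RNA. GATA1 and TAL1 are transcription factors that bind DNA together in erythroid and megakaryocytic cells, KLF1 switches on globin and membrane genes, NFE2 is a leucine zipper factor of erythroid cells, megakaryocytes and granulocytes, and GFI1B is a repressor needed for red cells and platelets. TRIM58 is a ubiquitin ligase of late erythroblasts, SLC25A37 (mitoferrin) carries iron into mitochondria, SELENBP1 is a selenium-binding protein abundant in late erythroid cells, and AHSP is the chaperone of free alpha globin. In whole blood, fewer cells of a type and less RNA per cell cannot be told apart.

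Depth ranged from 2840219 to 23638161 counts per sample, with a median of 11697200 in control samples and 6911270 after Day 21. Levels are given as CPM, counts scaled to a common library size set by the upper quartile. Library names were sorted by number into 3 ranges (called A, B and C here) whose meaning the sources do not give. Range A holds the lower running numbers and range B the higher ones, while the 150 samples of range C all share the same recorded value. A shared range C therefore does not show a shared batch. Of the 24 control samples, 20 were in range A, while all draws after Day 21 were in ranges B and C. The globin genes differed between these ranges, which also differ in their days. The median level of HBB was 432 CPM in range A, 510 CPM in range B and 17.8 CPM in range C. Within range C it spanned 2.05 to 3452 CPM. ALAS2, the first enzyme of heme synthesis in red cells, was at a median of 9224 CPM, 6271 CPM and 5687 CPM, and KLF1 at 104.8 CPM, 65.2 CPM and 58.4 CPM. In control samples the median of KLF1 was 38.4 CPM in range A (n = 20) and 41.03 CPM in range C (n = 4). Erythroid markers were present in every control sample, with a summed level of 8 genes between 1775 and 12984 CPM.

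The 250 bases before the annotated start of each gene were read from the genome assembly Mmul_10, to show the letters that the factors in this list are known to bind. The GATA motif was searched only as AGATAA or TGATAA on either strand, so forms ending in G are left in lower case. In this form it was in 3 of the 9 windows and in 13.5% of 20782 windows of the same length. The windows of KLF1, GATA1 and AHSP held it, and they are printed 5′ to 3′ on the strand of the gene, with matches in capitals. The window of KLF1 is chr19:12471076-12471325 on the minus strand, that of GATA1 is chrX:48786813-48787062 on the plus strand, and that of AHSP is chr20:28978662-28978911 on the plus strand.
KLF1: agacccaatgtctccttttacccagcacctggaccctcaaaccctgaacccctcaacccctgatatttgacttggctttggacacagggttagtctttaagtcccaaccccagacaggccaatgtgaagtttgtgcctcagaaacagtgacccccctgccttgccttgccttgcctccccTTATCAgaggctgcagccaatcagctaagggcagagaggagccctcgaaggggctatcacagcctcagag
GATA1: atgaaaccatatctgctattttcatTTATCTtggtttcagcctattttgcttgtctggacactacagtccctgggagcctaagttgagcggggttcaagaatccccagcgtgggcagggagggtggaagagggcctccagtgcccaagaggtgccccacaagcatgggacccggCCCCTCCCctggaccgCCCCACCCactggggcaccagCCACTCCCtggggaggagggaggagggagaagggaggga
AHSP: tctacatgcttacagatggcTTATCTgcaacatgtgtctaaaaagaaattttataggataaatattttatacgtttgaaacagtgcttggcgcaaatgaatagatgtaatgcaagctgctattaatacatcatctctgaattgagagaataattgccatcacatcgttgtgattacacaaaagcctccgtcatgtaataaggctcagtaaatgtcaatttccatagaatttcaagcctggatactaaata
In KLF1 the match began 70 bases before the gene start and in AHSP 230 bases, and in GATA1 it ended 220 bases before the start. The other capitals in the window of GATA1 are matches to CCNCNCCC, the letters of the KLF family, which was in 4 of the 9 windows and in 54.5% of all windows. The motif of NFE2 (TGANTCA) was in the window of NFE2 itself and in 5.1% of all windows. These are matches of letters in one window, and no binding was measured.

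KLF1 lies on chromosome 19 (12468253 to 12471075, minus strand), GATA1 on chromosome X (48787063 to 48794847, plus), TAL1 on chromosome 1 (177271872 to 177288460, plus), NFE2 on chromosome 11 (53902261 to 53911567, minus) and GFI1B on chromosome 15 (7373251 to 7386611, minus). TRIM58 is on chromosome 1 (1156804 to 1180524, minus), SLC25A37 on chromosome 8 (23770912 to 23818793, plus), SELENBP1 on chromosome 1 (99734096 to 99742833, plus) and AHSP on chromosome 20 (28978912 to 28980060, plus). TRIM58 overlaps LOC114678448 on the opposite strand, and its values are uncertain in so far as the counting did not use the strand. No other member overlaps an annotated gene. The median count per sample was lowest for GFI1B and highest for TRIM58 (5914), and the lowest single counts were 2 for SELENBP1 and 10 for GFI1B.

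Per length, NFE2 and SLC25A37 were the highest of the 9 before irradiation. The median over 24 control samples was 100.2 RPKM (CPM per kilobase of exon) for NFE2, 80.98 for SLC25A37, 66.5 for TRIM58, 27.4 for AHSP and 23.5 for KLF1. SELENBP1 (6.46 RPKM), GATA1 (5.77 RPKM), TAL1 (4.52 RPKM) and GFI1B (4.13 RPKM) were lower. The ranges of all neighbours in this order overlapped, and NFE2 was above SLC25A37 in 15 of 24 samples, SELENBP1 above GATA1 in 14 and TAL1 above GFI1B in 16. KLF1 was above SELENBP1 in all 24.

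Each scheduled day was compared with the control sample of the same animals. A gene rose or fell where the adjusted p (edgeR's quasi-likelihood test, Benjamini-Hochberg over the 13751 genes) was at most 0.05 and the fold change at least 1.5. Of the pairs of 9 members and 15 days, 72 rose and 0 fell, and 0 fell by DESeq2 as well. The estimate was below 0 in 8 pairs, and in 0 of these was the unadjusted p under 0.05. Of all genes, 4.62%, 5.48% and 2.43% fell on Day 3, 6 and 9, and 0.894%, 2.73%, 1.33% and 2.85% on Day 15, 21, 30 and 40. Later, 1.92% and 3.19% fell on Day 60 and 90, 19.1%, 19.5% and 9.86% on Day 120, 150 and 180, and 16.9%, 3.51% and 0.00727% on Day 210, 240 and 270.

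In the early period, 8 members rose on Day 3 (6.89% of all genes rose), 7 on Day 6 (6.04%) and 5 on Day 9 (5.15%). On Day 15 all 9 rose (5.11%), or 8 without animal B2504 (4.89%), followed by 7 on Day 21 (7.65%) and 7 on Day 30 (4.57%). Only AHSP of the 9 rose on Day 40 (4.07%), no member rose on Day 60 (2.31%), and 1 rose on Day 90 (3.87%), which was GFI1B. On Day 60, 1 member had an unadjusted p under 0.05 in the edgeR test and 0 members rose by DESeq2. The count of Day 40 was 7 without the replicate block (5.76% of all genes), 7 in 1 fit over all samples (5.11%), 6 with library number range as a covariate (5.77%) and 3 in the 6 animals drawn on Day 270 (3.69%). It was 1 without animal B2007 (3.65%) and 0 without both that animal and the block (3.24%).

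In the late period, 4 members rose on Day 120 (12.7% of all genes), 4 on Day 150 (12%), 5 on Day 180 (8.81%) and 9 on Day 210 (12.8%). On Day 240, 5 rose (3.26%). On Day 270 none passed the edgeR test, as did 0% of all genes, although all 9 were higher with an unadjusted p under 0.05 and 8 rose by DESeq2 (9.93% of all genes). Without animal B1003 the edgeR test called 7 on Day 270 (5.09% of all genes).

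**Figure D1:**
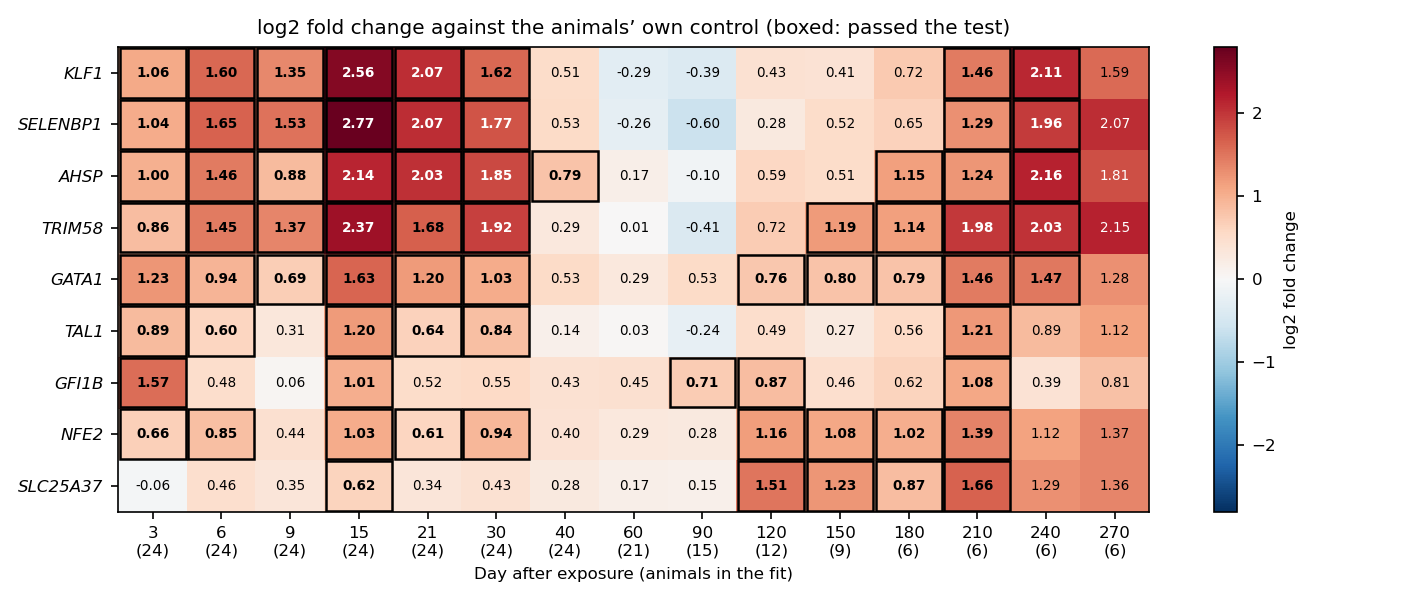
Log2 fold change of the 9 genes (rows) on each scheduled day (columns, with the number of animals in the fit) against the animals' own control samples, with boxes around the values that passed the test. KLF1, SELENBP1 and TRIM58 have their highest values on Day 15 (2.56, 2.77 and 2.37), GFI1B has its highest value on Day 3 (1.57), and NFE2 and SLC25A37 are boxed together from Day 120 to 210.

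GATA1 rose on 11 of the 15 days, more than any other member. The control samples spanned 4.995 to 18.86 CPM with a median of 8.79 CPM. On Day 3 the samples spanned 10.4 to 54.9 CPM (median 23.2), 19 of 24 lay above the highest control and all 24 animals were above their own control (log2 fold change 1.23, SE 0.0973, adjusted p = 1.54e-11, edgeR). On Day 15, its highest day, the median was 31.2 CPM, 21 of 24 samples lay above the highest control and the fold was 3.10. It was at a median of 11.7 CPM on Day 60, where 11 of 21 animals were above their control, and rose again from Day 120 (0.76, SE 0.246) to Day 240 (1.47, SE 0.373, adjusted p = 0.0408, edgeR).

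TAL1, the partner of GATA1 in erythroid complexes, rose on 6 days and by less. Its control samples spanned 13.8 to 89.3 CPM (median 35.1 CPM) and those of Day 15 spanned 32.4 to 365 CPM (median 82.4 CPM), so that the groups overlapped and 9 of 24 samples were above the highest control. The fold was 2.30 on Day 15 and 2.31 on Day 210, its highest values. Of 24 animals, 23 were above their control on Day 15.

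KLF1, the activator of globin and membrane genes, rose on 8 days. Its control samples spanned 5.59 to 144 CPM (median 38.8 CPM), and those of Day 15 spanned 29.3 to 1449.5 CPM (median 219.9 CPM). On Day 15, 15 of 24 samples were above the highest control and every animal was above its own, at 5.91 times the control level (log2 fold change 2.56, SE 0.205, adjusted p = 7.45e-11, edgeR). The highest value of that day came from the HD animal B2504, in which KLF1 was 6.64 times the median of the other animals, and without this animal the log2 fold change was 2.46. On Day 60 and 90 the medians were 31.1 and 28.0 CPM, with 7 of 21 and 7 of 15 animals above their control, and the estimates of -0.29 (SE 0.180) and -0.39 (SE 0.360) did not pass the test. KLF1 rose again on Day 210 (1.46, SE 0.393) and on Day 240 (2.11, SE 0.298), when all 6 animals were above their control.

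GFI1B followed another course, with its highest value on Day 3. Control samples spanned 3.33 to 16.04 CPM (median 8.75 CPM) and Day 3 samples 9.81 to 86.9 CPM (median 25.7 CPM), and 21 of 24 were above the highest control. All 24 animals were above their own control, with a fold of 2.97 (log2 fold change 1.57, SE 0.115, adjusted p = 3.38e-12, edgeR). By Day 9 the median was 9.91 CPM and the estimate 0.06 (SE 0.196). GFI1B rose again on Day 15 (1.01, SE 0.123), 90 (0.71, SE 0.192), 120 (0.87, SE 0.236) and 210 (1.08, SE 0.317).

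The platelet markers moved with GFI1B in the first days. On Day 3 all 8 tested markers of platelets and megakaryocytes rose, from 0.99 for ITGB3 to 1.44 for TREML1 on the log2 scale, and their summed level went from a median of 1619 CPM in controls to 4317 CPM. Between Day 3 and Day 9 all 8 fell, and GFI1B fell with them. The part of platelet RNA in the level of GFI1B was not tested.

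NFE2 rose on 9 days, in both the early and the late period. Control samples spanned 96.03 to 804 CPM (median 234.4 CPM). On Day 15 they spanned 147 to 2312 CPM (median 456 CPM), with 21 of 24 animals above their control (log2 fold change 1.03, SE 0.153). On Day 120 the median was 543 CPM and every one of 12 animals was above its control (1.16, SE 0.193, adjusted p = 0.000263, edgeR), and on Day 150, 180 and 210 all of 9, 6 and 6 animals were.

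**Figure D2:**
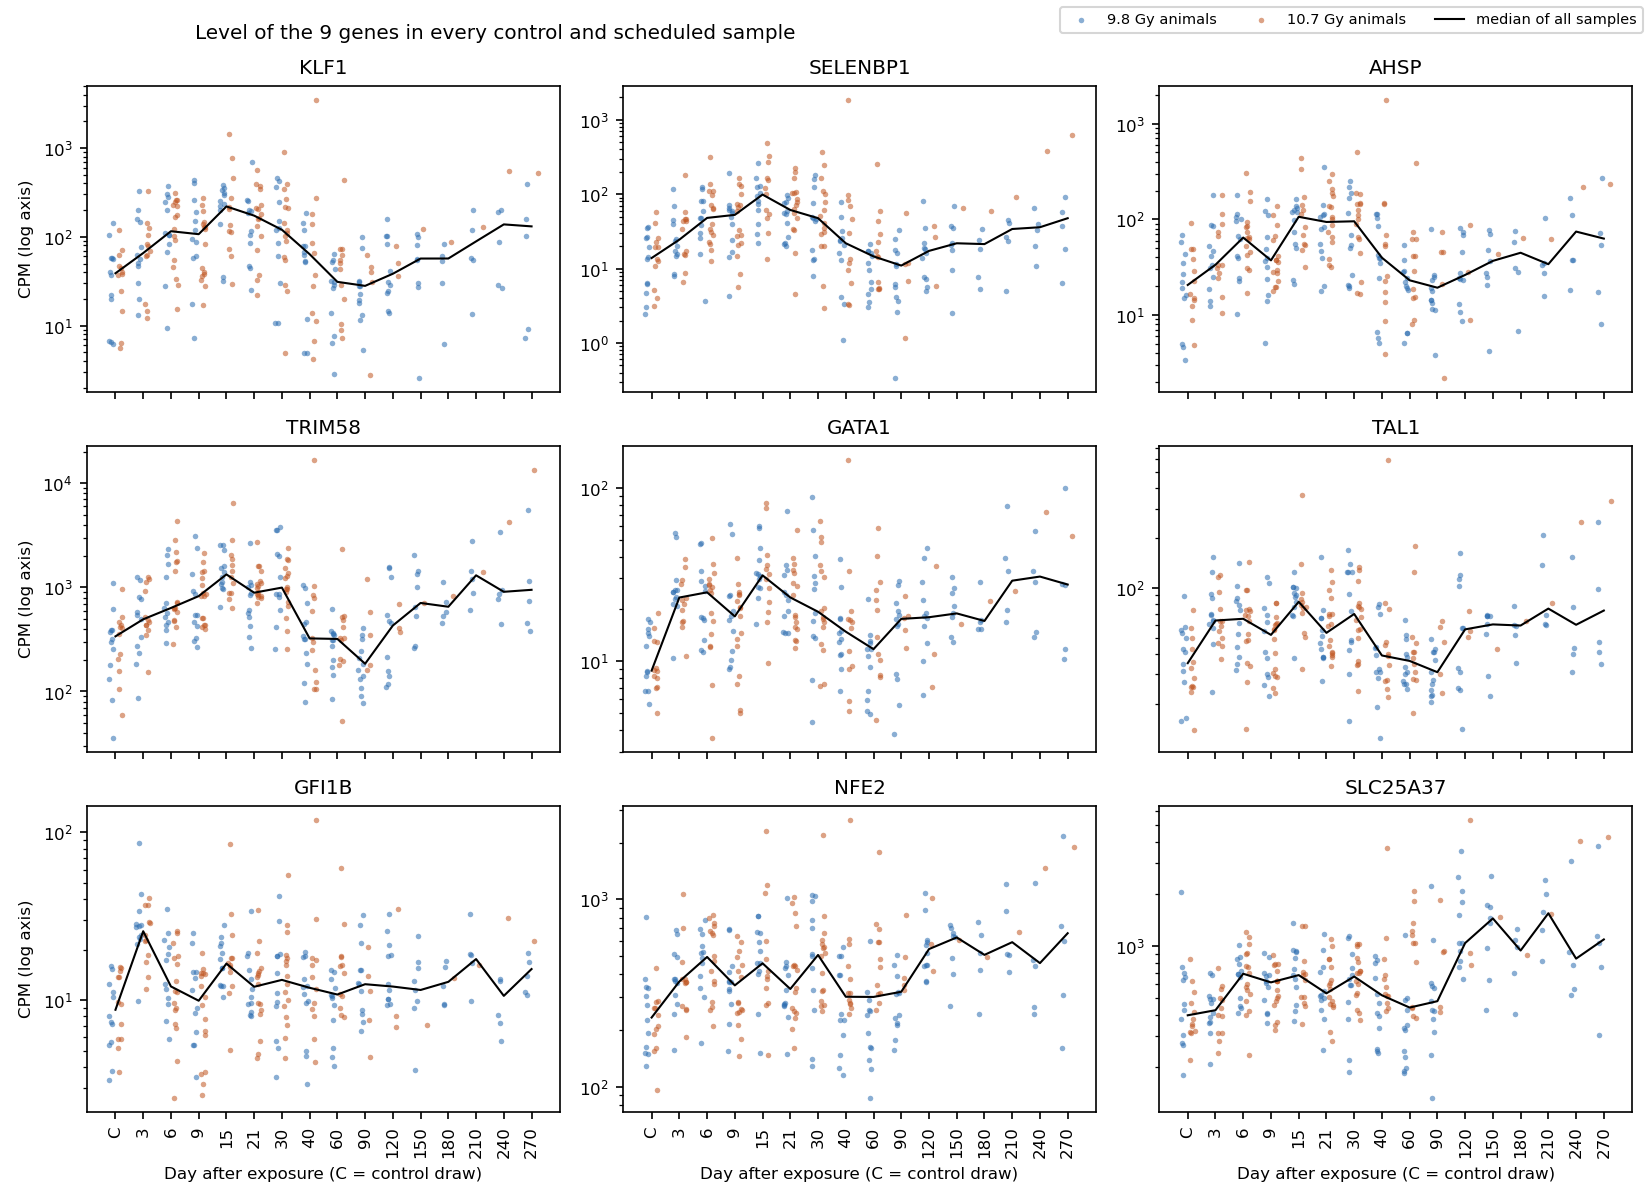
Level of the 9 genes (CPM, log axis) in the 24 control samples (C) and in every scheduled sample, with LD animals in blue, HD animals in orange and the median of all samples as a black line. The single high point of KLF1, SELENBP1, AHSP and TRIM58 on Day 40 is animal B2007, and the line of SLC25A37 steps up between Day 90 (479 CPM) and Day 120 (1038 CPM).

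TRIM58 rose on 10 days. Its control samples spanned 35.7 to 1101 CPM (median 339 CPM), and those of Day 15 spanned 630.5 to 6487 CPM (median 1333 CPM), when 23 of 24 animals were above their control and the fold was 5.18 (log2 fold change 2.37, SE 0.247). It was at a median of 185 CPM on Day 90 and rose from Day 150 (1.19, SE 0.343) to Day 240 (2.03, SE 0.315). On Day 270 the samples spanned 378 to 13484 CPM, and the estimate of 2.15 (SE 0.528, adjusted p = 0.0751, edgeR) did not pass.

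SLC25A37 passed the test on 5 days, 4 of them late. On Day 3 its median was 425 CPM against 397 CPM in controls, 10 of 24 animals were above their control and the estimate was -0.06 (SE 0.108). Its estimates of 0.34 to 0.46 on Day 6, 9, 21 and 30 had adjusted p-values of 0.0296 or less (edgeR) but a fold under 1.5, and on Day 15 it passed with 0.62 (SE 0.145). That call rests on animal B2504, since without it the estimate was 0.57. The larger rise came late: on Day 120 the samples spanned 644 to 5320 CPM (median 1038 CPM), 11 of 12 animals were above their control and the log2 fold change was 1.51 (SE 0.302, adjusted p = 0.000954, edgeR), and on Day 210 it was 1.66 (SE 0.171) with 6 of 6.

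SELENBP1 had the largest fold of the 9 on Day 15. Control samples spanned 2.48 to 57.7 CPM (median 13.9 CPM) and Day 15 samples 13.4 to 485 CPM (median 98.9 CPM), and 17 of 24 were above the highest control. Every animal was above its own control, with a fold of 6.84 (log2 fold change 2.77, SE 0.205, adjusted p = 2.54e-11, edgeR). On Day 90 its median was 10.98 CPM and the lowest sample was at 0.339 CPM (-0.60, SE 0.388). On Day 240 it rose to 3.90 times the control level.

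AHSP was the 1 member called on Day 40 in the test with each animal as a block. Its control samples spanned 3.36 to 91.5 CPM (median 20.6 CPM) and those of Day 15 spanned 21.1 to 437 CPM (median 106.2 CPM). All 24 animals were above their control on Day 6 and on Day 15 (log2 fold change 2.14, SE 0.162). On Day 40 the median was 39.7 CPM and 19 of 24 animals were above their control (0.79, SE 0.267, adjusted p = 0.0179, edgeR). Without B2007 and without the block the call was lost (0.83, SE 0.375, adjusted p = 0.0858, edgeR). Its highest estimate was on Day 240, at 2.16 (SE 0.327), with 6 of 6 animals.

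Neutrophil markers moved with NFE2 and SLC25A37 from Day 120 to 210, whereas on Day 240 the median of their summed level did not. On Day 120, 8 of the 9 tested neutrophil markers rose (12.7% of all genes), from 1.07 for CSF3R to 3.08 for MMP8. Then 6 rose on Day 150 (12%), 5 on Day 180 (8.81%) and 6 on Day 210 (12.8%). Their summed level had a median of 2690 CPM in controls, 1860 CPM on Day 21, 6347 CPM on Day 120 and 7825 CPM on Day 210. On Day 240 the median log2 ratio of this sum to the animals' own control was 0.06, with 3 of 6 animals above. NFE2 (0.66) and SLC25A37 (0.73) were above control in 6 of 6 animals that day, as was the erythroid sum (1.49). On Day 15, when NFE2 rose, and SLC25A37 only with animal B2504 in the fit, the median change of the 9 neutrophil markers was -0.18 on the log2 scale. Of the 8 erythroid markers, 1 rose on Day 120, and on Day 210 4 rose and 2 fell, the globins HBA and HBB. The median log2 ratio of the erythroid sum to control was 1.34 on Day 210, with 5 of 6 animals above. The sum of platelet markers was also above control, in 10 of 12 animals on Day 120 (median log2 ratio 1.13) and in 5 of 6 on Day 210 (0.47). How much of the RNA of NFE2 and SLC25A37 came from neutrophils or from any other cell type was not tested.

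**Figure D3:**
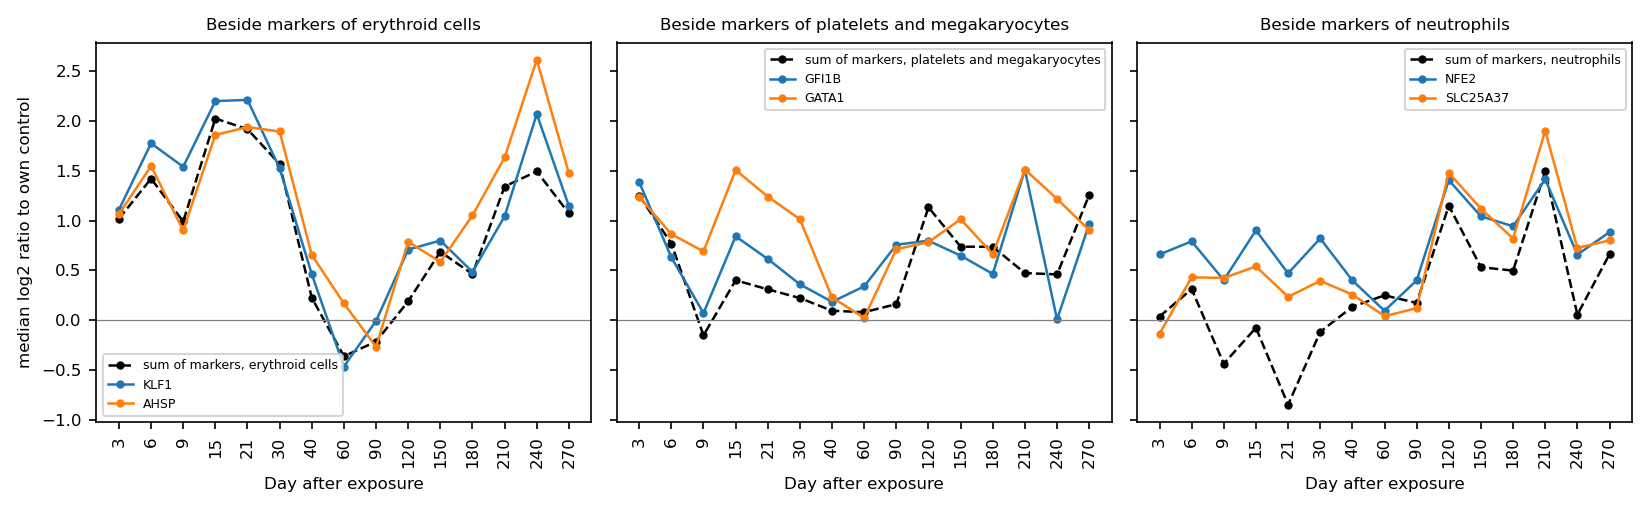
Median log2 ratio to the animals' own control on each scheduled day, for the summed markers of a cell type (dashed) and for members drawn beside them. On Day 15 the medians were 2.20 for KLF1, 1.86 for AHSP and 2.02 for the sum of erythroid markers, and on Day 60 they were -0.46, 0.17 and -0.36, GFI1B and the platelet sum are both high on Day 3 and near 0 on Day 9, and SLC25A37 and the neutrophil sum are both higher from Day 120 to 210.

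Likeness over the 304 samples was described by the correlation of log2 levels after each animal's mean was taken off. These samples share animals, libraries and depth, so that no p is given. KLF1 was most like SELENBP1 (Pearson r 0.96) and AHSP (0.93) among the members, and least like SLC25A37 (0.32) and GFI1B (0.41). NFE2 was most like SLC25A37 (0.82). GATA1 was most like TAL1 (0.82) and KLF1 (0.79), with 0.73 each to GFI1B, TRIM58 and AHSP.
Among the other tested genes, KLF1 was most like TESC, HYAL3 and SLC25A39 (each 0.97), the last of which is a mitochondrial carrier. AHSP was most like ISCA1 (0.95), an iron-sulfur cluster assembly gene, TESC (0.94) and ACSL6 (0.94). GATA1 was most like PNKD (0.87), RBM38 (0.85) and GUCD1 (0.85), and NFE2 was most like NPTN (0.91), FAM214B (0.90) and SRXN1 (0.90).

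Steps between days were also tested within animals. From Day 3 to Day 9, GFI1B fell in 23 of 24 animals (-1.51, SE 0.157, adjusted p = 7.25e-09, edgeR; 5.8% of all genes fell), and no member rose while 7.54% of all genes did. TAL1 and GATA1 were lower in 19 of 24 animals (-0.58 and -0.54) with a fold under 1.5. From Day 9 to Day 21, AHSP rose in 24 of 28 animals (1.16, SE 0.149) and KLF1 in 21 of 28 (0.69, SE 0.166), against 1.81% of all genes. No member fell in this step, and 0.829% of all genes did.

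From Day 21 to Day 40, 5 of the 9 fell (4.63% of all genes fell and 3.84% rose). KLF1 fell in 23 of 24 animals (-1.49, SE 0.281), SELENBP1, AHSP and TRIM58 each in 22 (-1.46, -1.20 and -1.32), and GATA1 in 18 (-0.64, SE 0.209, adjusted p = 0.0141, edgeR). For NFE2 (-0.20), GFI1B (-0.07) and SLC25A37 (-0.05) no change passed. In the same step all 8 erythroid markers fell and 8 of 9 neutrophil markers rose. In the 10 animals with both draws in one library number range 0 of the 9 fell by the edgeR test, and in the 9 of these other than B2007, 5 fell (KLF1 by 1.79 on the log2 scale). The shares of all genes that fell were 2.44% in these 10 animals and 6.53% in the 9.

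Animal B2007, an HD male, had its last draw on Day 40, and 8 of the 9 members were then at their highest level of all 304 samples. KLF1 was at 3491 CPM there, against 5.59 CPM in its own control, 120.1 CPM at its draw before and at most 273 CPM in the other 23 animals of that day. TRIM58 was at 16776 CPM and AHSP at 1772 CPM. The members were 7.13 to 90.2 times the median of the other animals. ALAS2 (334371 CPM) and the platelet gene PPBP (23957 CPM) were also at their highest of all samples, and the T cell gene CD3E (41.6 CPM) was at its lowest. Without B2007 the estimate of KLF1 on Day 40 was 0.38 (SE 0.206) and AHSP remained the 1 member that rose.

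From Day 90 to Day 120, SLC25A37 (1.40, SE 0.275, adjusted p = 0.00346, edgeR) and NFE2 (0.79, SE 0.175, adjusted p = 0.00546, edgeR) rose, each in 13 of 14 animals, against 7.79% of all genes that rose and 7.72% that fell. KLF1 went up in 10 of 14 animals (0.45, SE 0.215) and did not pass. All 9 neutrophil markers and 3 of 5 monocyte markers rose in this step, and all 6 B cell markers fell. No member passed the edgeR test from Day 40 to Day 90, where 4 had an unadjusted p under 0.05 and 1 fell by DESeq2, while 1.64% of all genes fell and 1.44% rose. None passed from Day 120 to Day 180 or from Day 180 to Day 270 (6 animals each), nor did any other gene. Among the 9, 0 and 2 had an unadjusted p under 0.05 in these steps, and 0 passed by DESeq2.

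The 6 animals drawn up to Day 270 were 5 LD animals and 1 HD animal, B2502. On Day 270, KLF1 was at 526.3 CPM in B2502 (control 63.1), 397 CPM in B1503 (control 20.1) and 160 CPM in B1502 (control 58.3), at 102 CPM in B1505 (control 57.04), and at 9.20 CPM in B1004 (control 6.12) and 7.14 CPM in B1003 (control 6.72). SLC25A37 was at 4224 CPM in B2502 and 3793 CPM in B1503, and between 305 and 1136 CPM in the other 4. The same 2 animals were thus highest for both genes.

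**Figure D4:**
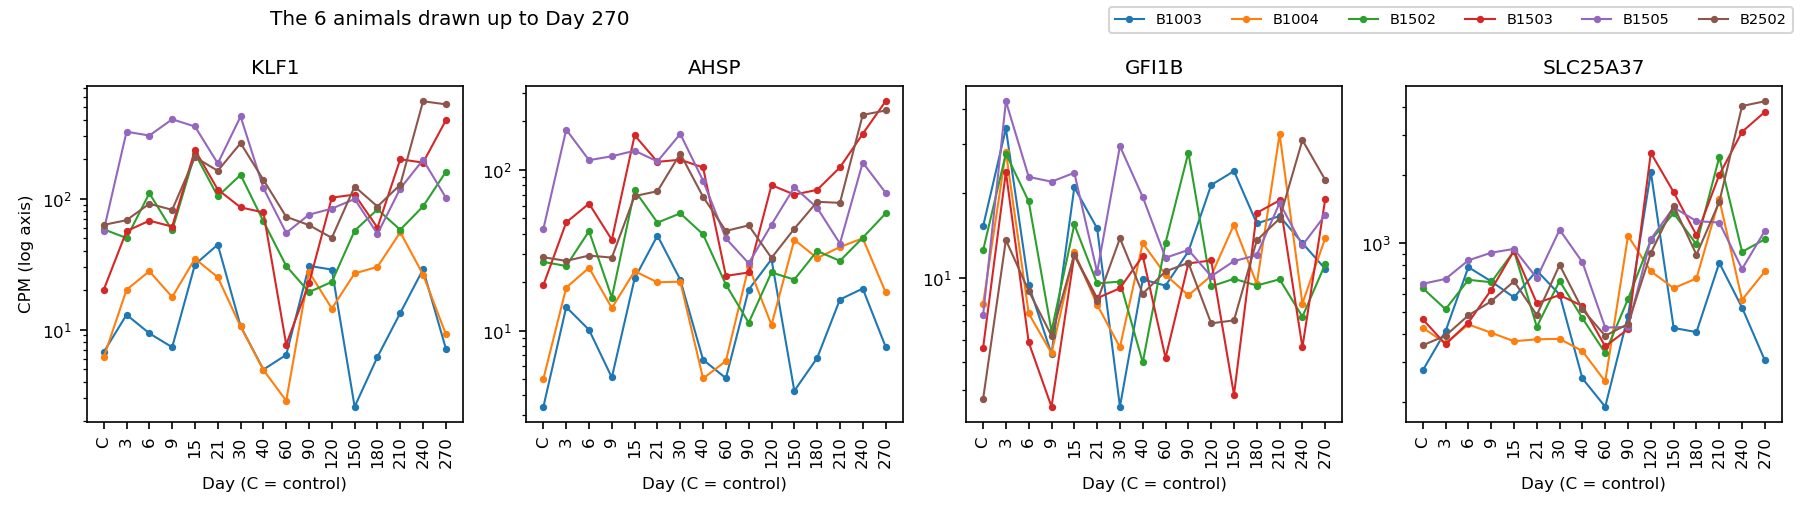
Level (CPM, log axis) of KLF1, AHSP, GFI1B and SLC25A37 in the 6 animals drawn up to Day 270, from the control draw (C) on, 1 line an animal. The lines of KLF1 spread from B1003 at 7.14 CPM to B2502 at 526.3 CPM on Day 270, and all 6 lines of GFI1B are higher on Day 3 than in the control.

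The doses were compared in the 24 animals with a control, as the change from control in counts summed over the days of a window. Over Day 3 to 21 no member differed by dose, and 0% of all genes did, with differences (HD minus LD) from -0.36 for GFI1B to 0.16 for NFE2, no unadjusted p under 0.05 and 0 by DESeq2. KLF1 had changed by 1.83 ± 0.854 (SD, n = 12) in HD and 2.02 ± 0.723 (SD, n = 12) in LD animals on the log2 scale.

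Over Day 30 to 60, SLC25A37 was higher in HD animals (3.37% of all genes were higher and 0.56% lower in HD). Its change was 0.93 ± 0.607 (SD, n = 12) in HD and -0.05 ± 0.483 (SD, n = 12) in LD animals, a difference of 0.92 (SE 0.198, adjusted p = 0.00386, edgeR), and 0.78 without B2007. NFE2 had a difference of 0.68 (SE 0.260, adjusted p = 0.108, edgeR), and for KLF1 (0.08), AHSP (0.26) and SELENBP1 (0.14) the differences were smaller than their SE. The call of SLC25A37 was lost when the pairing of samples within animals was left out of the fit.

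By single draws, the difference passed the test on Day 60. In LD animals the level of SLC25A37 on that day spanned 184 to 1157 CPM (median 332 CPM, n = 12) and in HD animals 383 to 2071 CPM (median 1035 CPM, n = 12). All 9 HD animals with a control were above it, and 2 of 12 LD animals were. With Day 60 alone, SLC25A37 (1.63, SE 0.224), NFE2 (1.29, SE 0.215) and GATA1 (0.88, SE 0.295) were higher in HD animals, as were 10.5% of all genes. On Day 30 alone (0% of all genes higher) and on Day 40 alone (0.0291%) no member passed, at 0.38 (SE 0.229) and 0.71 (SE 0.334) for SLC25A37.

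All HD draws of Day 60 were in library number range C, against 8 of 12 LD draws. Within LD animals the median log2 ratio of SLC25A37 to control was -0.65 in the 8 draws of range C and -0.56 in the 4 of range B. Within HD animals it was 1.72 in the 7 with a control in range A and 0.76 in the 2 with a control in range C. For GATA1 these HD medians were 1.09 and -0.20, with 1 of the latter 2 animals above its control. The fit in animals of one range could not be made, because no LD animal had control and late draws in one range. Over Day 30 to 60 all 9 neutrophil markers were also higher in HD animals, from 0.62 for CXCR2 to 2.86 for MMP8, while the median difference of the 8 erythroid markers was -0.07. The summed neutrophil level on Day 60 had a median of 6216 CPM in HD and 1679 CPM in LD samples, and its part in the difference of SLC25A37 was not tested.

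**Figure D5:**
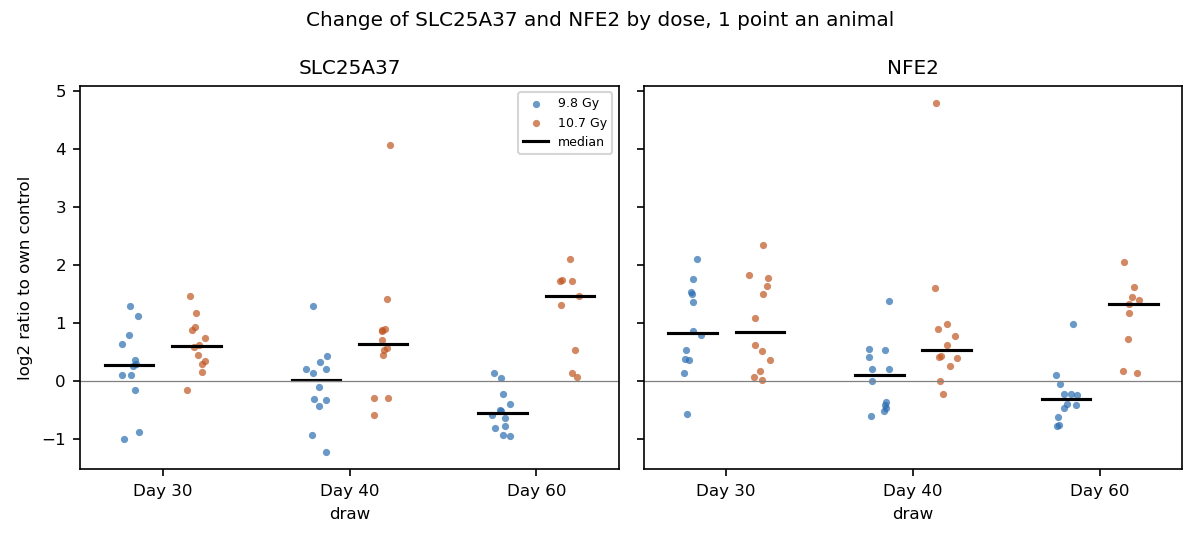
Log2 ratio of SLC25A37 and NFE2 to the animal's own control on Day 30, 40 and 60, 1 point an animal, LD (9.8 Gy) in blue and HD (10.7 Gy) in orange, with the median as a bar. On Day 60 all 9 HD animals are above 0 for both genes, against 2 of 12 LD animals, and the high orange point on Day 40 is B2007.

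Between the sexes no member differed, in either window, and 0% of all genes did. GATA1 was nearest, with a larger change in females by 0.43 (SE 0.176, unadjusted p = 0.0217, adjusted p = 1, edgeR) over Day 3 to 21 and by 0.69 (SE 0.304, unadjusted p = 0.0314, adjusted p = 1, edgeR) over Day 30 to 60. It was the 1 member with an unadjusted p under 0.05 in each window, and 0 members passed by DESeq2.

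Other genes of the erythroid programme were described on Day 15, the earlier of the 2 days when all 9 members rose, from lists of genes by role. Of 14 globin, heme and membrane genes 13 rose (median 2.09 on the log2 scale, against -0.04 over all genes), with HBA (3.08), HBB (2.90) and SLC4A1 (2.65) the largest. Of 15 genes of ubiquitin and organelle clearance 11 rose (median 1.53), led by BCL2L1 (2.0996), DCAF12 (2.09) and RANBP10 (2.02). Of 11 genes of iron uptake and mitochondrial import 6 rose (median 0.85), led by SLC25A39 (2.26), GLRX5 (2.20) and FTL (1.45).

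Of 14 partners of the transcription factors, SOX6 rose (1.72) and CBFA2T3 fell (-0.68), and the median was -0.15. BCL11A was at -0.53 (adjusted p = 9.45e-05, edgeR), with a fold under 1.5. GATA2, the factor of progenitors, was at -0.28 (adjusted p = 0.00249, edgeR), also with a fold under 1.5. Of 7 genes of erythropoietin signalling, EPOR, the receptor, rose (1.93). KIT (-0.58, adjusted p = 0.000113, edgeR) and CISH (0.55, adjusted p = 2.72e-07, edgeR) had a fold under 1.5 and did not pass.

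On Day 40, 3 of the 14 globin, heme and membrane genes rose and the median of the 15 clearance genes was 0.21, and on Day 210, 9 and 13 of these lists rose. On Day 30, 60 and 210 the globins HBA and HBB fell (HBB by 1.36, 2.54 and 1.63 on the log2 scale). SLC4A1 was then at 1.91, 0.04 and 2.29. Most draws of those days were in range C, where the median of HBB over all samples was 17.8 CPM. On Day 40, with draws in both ranges, its median was 337 CPM in range C and 643 CPM in range B. Range and day went together, and the part of range in the globin levels was not tested. Of the 7 genes of erythropoietin signalling, KIT (2.01) and JAK2 (1.21) rose on Day 120, and EPOR (1.71), CISH (1.03) and STAT5B (0.62) on Day 210. Genes of cycling cells rose with the members on Day 6, at 5 of 6 markers, and B cell markers fell on most days, at 6 of 6 on Day 3 and 5 of 6 on Day 15.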

How the data were processed

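Per the labels and the paper's methods, whole blood RNA was depleted of ribosomal RNA and sequenced as paired reads. The paper's methods do not state whether globin RNA was removed as well. The authors trimmed reads with cutadapt 2.10, aligned the remainder to Mmul_10 with STAR 2.7.6a and used Subread 2.0.1 to count reads per RefSeq gene, and whether strand was used is not given in the sources used here. The deposited counts are whole and not normalized, and the authors' second table holds normalized log2 values, used here as an alternative only. For normalization the paper describes upper quartile scaling and also a conditional quantile method that corrects for GC content.

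A gene was tested where 80% or more of the samples had 3 or more counts (13751 of 21070), with edgeR 4.0.16 (R 4.3.3) by the quasi-likelihood test, with upper quartile scaling, and p-values were adjusted over all of them. Each day was fitted on the animals' own control and that day, with the animal as a block, since numbers name the same animal. Doses and sexes were compared on counts summed per animal over a window. The 8 unscheduled draws entered no comparison. RPKM used the exon length of the Mmul_10 annotation. The fits were tested on simulated data. Python 3.11.15, pandas 2.3.3, NumPy 2.4.6 and Matplotlib 3.10.9 made tables and figures.

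The members and gene lists were chosen with earlier results of these data known. The text names all 9 members, up to 3 genes a list with the largest change on Day 15, the earlier of the 2 days when all 9 members rose, and the 3 genes most like KLF1, AHSP, GATA1 and NFE2. Other genes were named after their values were seen. Alternatives were TMM, DESeq2 1.42.0, limma 3.58.1 on log2 values, no filter, no replicate block, 1 fit over all samples with and without library number range, animals of 1 range, only animals drawn on Day 270 and leaving out animals.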

Additional observations from a re-analysis of the deposited data

Results flagged for a closer look

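The 9 members in the 6 groups of 4 to 10 samples of one dose and day made 54 pairs of a gene and a group, which share samples. In 4 of the 54 pairs a sample lay apart from the others by Dixon's test on log levels, which chance gives in about 1 of 20 such pairs. KLF1 was at 2.78 CPM in the HD animal B2001 on Day 90 (others 31.1 to 62.8 CPM). In the LD animal B1003 on Day 150, KLF1 was at 2.57 CPM (others at least 26.8 CPM) and AHSP at 4.22 CPM (others 20.8 to 77.9 CPM). This animal was already low in its control draw, with KLF1 at 6.72 CPM and AHSP at 3.36 CPM. Its AHSP on Day 150 was thus above its own control. GATA1 was at 28.6 CPM in the LD animal B1503 on Day 180 (others 15.3 to 17.3 CPM).

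The change of SLC25A37 over Day 30 to 60 differed between the doses by 0.92 on the log2 scale, higher in HD animals.

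The 8 unscheduled draws entered no comparison, and each held members above the highest control sample. These were 2 members in B2004 on Day 71, 3 in B2501 on Day 77, 1 in B2504 on Day 94, 2 in B1504 on Day 102, 1 in B1001 on Day 127, 2 in B2506 on Day 129, 2 in B1002 on Day 160 and 2 in B1506 on Day 172. Some members were below the lowest control sample. In B2004, KLF1 was at 3.79 CPM (lowest control 5.59 CPM) and SELENBP1 at 1.56 CPM (lowest control 2.48 CPM). SELENBP1 was also below its lowest control in B1504, and no member was in the other draws. The same counts were not made for all genes or for scheduled draws.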

How the results depend on the processing

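Of 839 repeats of the 83 called values, 754 kept direction and call, 82 lost the call and 3 turned. The 3 were the step from Day 21 to Day 40 without the replicate block, at 0.055 for KLF1, 0.035 for TRIM58 and 0.35 for SELENBP1. Without the block 13 of the 83 calls were lost, and the causes were not tested.

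Counts of members that rose moved as follows, with the share of all genes called in that direction in brackets. Without the replicate block they were 7 on Day 40 (5.76%), 0 on Day 90 (3.53%), 3 on Day 240 (2.81%) and 1 from Day 9 to 21 (1.49%), while 0 fell from Day 21 to 40 (2.45%) and 0 were higher in HD animals over Day 30 to 60 (0.0436%). On Day 40 without B2007 and without the block, 0 rose (3.24%). With 1 fit over all samples the counts were 7 on Day 40 (5.11%), 8 on Day 240 (13.5%), 9 on Day 270 (16.1%), 2 from Day 3 to 9 (7.61%), 1 from Day 9 to 21 (1.61%) and 4 from Day 90 to 120 (9.09%), and 5 fell from Day 40 to 90 (3.26%). With library number range as a covariate 6 members rose on Day 40 (5.77%) and 3 on Day 180 (7.3%), then 8 rose on Day 240 (12.6%) and all 9 on Day 270 (15.1%). In that fit 2 rose from Day 3 to 9 (7.62%), 1 from Day 9 to 21 (1.43%) and 4 from Day 90 to 120 (9.32%), and 4 fell from Day 40 to 90 (2.3%) and 1 from Day 120 to 180 (4.84%). With only the 6 animals drawn on Day 270 2 members rose on Day 6 (0.698%) and 0 members on Day 9 (2.36%), then 3 rose on Day 30 (0.444%) and as many on Day 40 (3.69%), against 0 for Day 90 (0%) and 2 for Day 120 (8.07%). In these animals 1 rose from Day 9 to 21 (0.924%) and 0 from Day 90 to 120 (0%), and 3 fell from Day 3 to 9 (5.15%) and 2 from Day 21 to 40 (3.12%). In animals of 1 range, 4 rose on Day 30 (4.6%), 0 fell from Day 21 to 40 (2.44%) and 1 was higher in females over Day 30 to 60 (0.0218%). DESeq2 called 9 on Day 180 (11.3%) and 8 on Day 270 (9.93%), and 3 that fell from Day 3 to 9 (7.23%) and 1 from Day 40 to 90 (2.34%). From Day 3 to 9, 3 fell with TMM (7.8%), 2 with no filter (5.39%) and 2 with limma (6.05%), and with no filter 4 rose on Day 270 (2.11%). By draw, 0 members were higher in HD animals on Day 30 (0%), 0 on Day 40 (0.0291%) and 3 on Day 60 (10.5%).

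Leaving out 1 animal at a time gave 4 members on Day 150 each time, 4 to 7 on Day 180 and 7 to 9 on Day 210, with 4 to 5 on Day 240 and 0 to 7 on Day 270, where the count of 7 came without B1003 (5.09%). The choice to leave out B2007 or B2504, and to split the dose window by draw, was made after seeing the data.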
